A study of Cyprinodon variegatus with 4 samples.

Results

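Genes named EGR1, ATF3, FOS, JUN, JUNB, KLF2, CEBPB, CEBPD, GADD45B or IER2, the immediate-early and stress transcription regulators, were followed in whole-larva RNA of Cyprinodon variegatus, the sheepshead minnow, a small estuarine fish. CEBPB stands as Cebpb in the table. A contig (an assembled transcript) was taken when its gene name equalled one of these 10 symbols, in any case, with or without a final a or b. Of 257521 contigs, 24404 had a gene name and could match. The rule found 19 of these, for 8 of the 10 genes. CEBPD and IER2 matched no named contig, so whether they were expressed cannot be told from the names. The genes were chosen by name and partly selected on their FPKM shifts between these same libraries, so the values below are a description and no test was made.

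There were 4 libraries, 1 for each group: untreated control larvae, larvae given the surfactant Tween 80 at 0.001% (the surfactant control), and larvae kept with PET microfibres (polyethylene terephthalate, the polyester of textiles) at 10 mg/L, here the low-fibre library, or 100 mg/L, here the high-fibre library. Exposure lasted 10 days from 72 h after fertilization. The labels leave unsaid whether Tween 80 was also added with the fibres, so the PET libraries were set against both libraries without fibres. With 1 library a group there is no replicate error, every difference is one between libraries, and no p-value was computed. In whole-larva RNA, fewer cells of a type and less RNA per cell cannot be told apart.

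Immediate-early genes are transcribed within minutes of a signal, without new protein synthesis, when kinases such as ERK, JNK and p38 act on factors already bound at their promoters. FOS, JUN, JUNB and ATF3 encode leucine zipper proteins that pair to form AP-1 and related complexes, and EGR1 and KLF2 encode zinc finger factors. CEBPB and CEBPD act later and longer, in liver, fat and myeloid cells, and drive acute phase genes in mammals. GADD45B encodes a small stress protein that binds a kinase upstream of p38 and JNK.

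Expression was deposited as FPKM, fragments mapped to a contig per kilobase, scaled to the mapped total. The FPKM of a library summed to between 1039707 and 1080208, and 143907 to 152374 contigs were above 0, fewest in the surfactant control. Fragment counts were not used here, so the absolute depth and the counting error of a value are unknown. Relative to the untreated control, the depth read from the spacing of low values was about 77% for the surfactant control, 81% for the low-fibre and 78% for the high-fibre library. Markers of tissues of a whole larva were present, with 7 descriptions for skeletal muscle, 8 for hepatocytes, 5 for neurons and 4 for myeloid cells at a mean of at least 1 FPKM. The muscle light chain gene MYLPF was listed at 0 in all 4 libraries.

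KLF2, a factor best known from blood vessel lining, where it responds to flow, had the highest summed level of the regulators. Its 3 contigs summed to 104 FPKM in the untreated control, 99.5 in the surfactant control, 78.1 in the low-fibre and 73.0 in the high-fibre library. JUNB, an AP-1 partner that often restrains JUN, was next at 77.0, 52.0, 65.6 and 68.0 FPKM in the same order. Both PET libraries were thus below both others for KLF2, whereas for JUNB the surfactant control was lowest and the untreated control highest.

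GADD45B followed KLF2 in its pattern. Its 3 contigs summed to 65.3 FPKM in the untreated control, 66.1 in the surfactant control, 48.8 in the low-fibre and 47.4 in the high-fibre library. EGR1, a factor induced by growth signals and nerve activity, summed to 40.7, 24.8, 25.8 and 36.0 FPKM. For EGR1 the surfactant control and the low-fibre library lay close together and low, and the high-fibre library lay near the untreated control.

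CEBPB was at 20.1 FPKM in the untreated control, was listed at 0 in the surfactant control, and was at 14.8 in the low-fibre and 18.1 in the high-fibre library. ATF3, a stress-induced partner of JUN, was at 9.36, 5.24, 9.25 and 10.1 FPKM. FOS, the classic AP-1 partner of JUN, summed to 3.99, 4.52, 4.73 and 5.34 FPKM. JUN itself, at 0.73, 1.01, 1.01 and 1.29 FPKM, was the lowest of the regulators. JUN stood at 1.01 FPKM on average, just above the minimum mean of 1 FPKM used here.

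**Figure D1:**
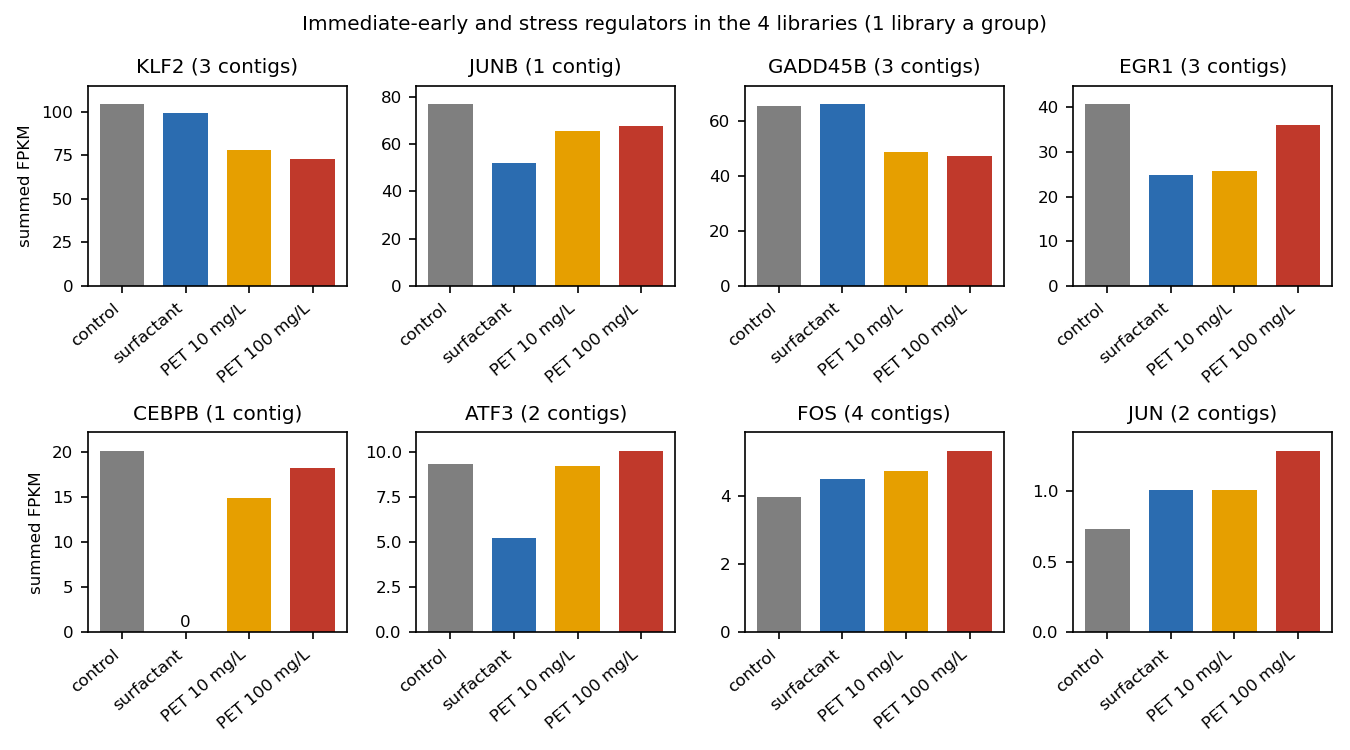
Summed FPKM of each regulator in the 4 libraries, as bars from 0, with a separate vertical scale for each gene and 1 library a group. KLF2 and GADD45B are lower in both PET libraries, JUNB, EGR1, CEBPB and ATF3 are lowest in the surfactant control, and CEBPB is listed at 0 there.

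The order by mean level was therefore KLF2, JUNB, GADD45B, EGR1, CEBPB, ATF3, FOS and JUN. Without replicates it cannot be said which neighbours in this order differ beyond error. The ranges over the 4 libraries overlapped between KLF2 and JUNB, JUNB and GADD45B, and ATF3 and FOS. CEBPB and ATF3 overlapped only through the surfactant control, where CEBPB was listed at 0. There was no overlap between GADD45B and EGR1, EGR1 and CEBPB, or FOS and JUN. All 8 sums passed the minimum mean of 1 FPKM, as did 12 of the 19 contigs. Together the 19 contigs summed to 322 FPKM in the untreated control, 253 in the surfactant control, 248 in the low-fibre and 259 in the high-fibre library.

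CEBPB rested on 1 contig, TR202194|c0_g1_i1. No other contig shared its assembled gene or its gene name. Only 24404 of the 257521 contigs had a gene name, and no sequence was used. Whether an unnamed contig belongs to the same gene was not tested. No fold is given against a library listed at 0, since an exact 0 in FPKM can be a failed estimate. An exact 0 was rare at this level: of 7359 contigs with at least 10 FPKM in 3 libraries, 3 (0.0408%) were listed at 0 in the remaining one. The surfactant control, the low-fibre and the high-fibre library each held 1 of these. CEBPB was the only one with a gene name. The regulators were chosen partly for their shifts between these libraries, so this share describes the 0 and tests nothing. Between libraries in which it was above 0, CEBPB was lower by 0.43 on the log2 scale in the low-fibre library than in the untreated control and by 0.14 in the high-fibre library, both under 2-fold.

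**Figure D2:**
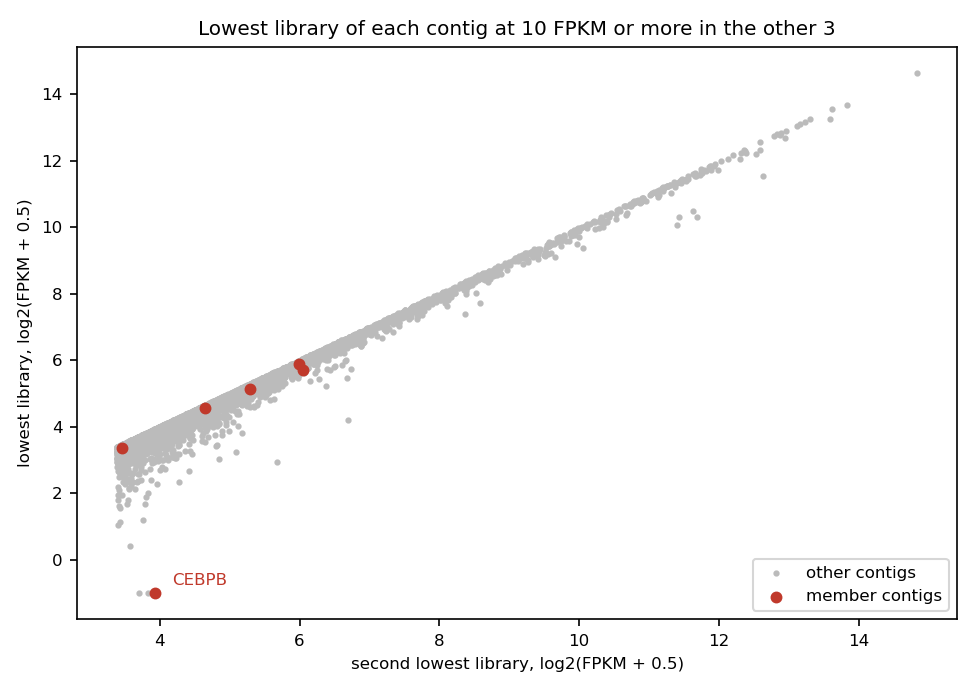
Each point is 1 of the 7359 contigs at 10 FPKM or more in at least 3 libraries. The horizontal axis is its second lowest library and the vertical axis its lowest, both as log2(FPKM + 0.5), with the 6 contigs of the regulators in red. CEBPB is 1 of the 3 points at the bottom, where the lowest library is listed at 0.

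Log2 ratios were taken of summed FPKM plus 0.5, and a ratio of at least 2-fold was called. In the surfactant control against the untreated control, CEBPB alone of the 8 was called, as lower, beside 4.55% of all descriptions called either way and 2.04% called lower. JUNB was at 52.0 FPKM in the surfactant control against 77.0 in the untreated control, a log2 ratio of -0.56. EGR1 had 24.8 FPKM against 40.7, with a log2 ratio of -0.71, and ATF3 had 5.24 against 9.36, a log2 ratio of -0.78. KLF2 and GADD45B had ratios of -0.07 and 0.02, while FOS and JUN were higher by 0.16 and 0.30. The median of the 8 log2 ratios was -0.32, beside 0.00058 over all 6457 descriptions.

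The surfactant control was the lowest of the 4 libraries for JUNB, EGR1, CEBPB and ATF3, 4 of 8, beside 30.1% of all descriptions. For JUNB, CEBPB and ATF3 it was at least 1.25-fold below each other library, beside 5.65% of descriptions. Such counts were chosen after the data were seen, for genes partly selected on their shifts, and are a description only. EGR1 missed that mark, because the surfactant control was at 24.8 FPKM and the low-fibre library at 25.8. After median-of-ratios scaling, a rescaling of each library by the median ratio to a common profile, the same 4 genes were lowest in the surfactant control, beside 22.3% of descriptions. The 1.25-fold gap was then held by ATF3 and CEBPB, 2 of the 7 regulators past the minimum, beside 4.83% of descriptions, and no longer by JUNB.

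In the low-fibre library against the surfactant control, CEBPB alone was called, as higher, beside 4.99% of descriptions called either way and 2.94% called higher. ATF3 had 9.25 FPKM against 5.24, with a log2 ratio of 0.76, and JUNB had 65.6 against 52.0, a ratio of 0.33. EGR1 differed by 0.06 and FOS by 0.06, and JUN was at 1.01 FPKM in both. GADD45B had 48.8 FPKM against 66.1, with a log2 ratio of -0.44, and KLF2 had 78.1 against 99.5, a ratio of -0.35. Of the 12 contigs past the minimum, the CEBPB contig alone was called in this comparison, beside 15.5% of all contigs; the same held in the high-fibre library (15.9%) and in the surfactant control against the untreated control (14.5%). The median of the 8 was 0.06, beside 0.03 over all descriptions.

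In the high-fibre library against the same surfactant control, CEBPB was again the only call, beside 4.91% of descriptions called either way and 2.96% called higher. ATF3 had 10.1 FPKM against 5.24, with a log2 ratio of 0.88, and EGR1 had 36.0 against 24.8, a ratio of 0.53. JUNB had a log2 ratio of 0.38, FOS of 0.22 and JUN of 0.25. KLF2 was at 73.0 FPKM against 99.5, a ratio of -0.44, and GADD45B at 47.4 against 66.1, a ratio of -0.48. The median of the 8 was 0.31, beside 0.08 over all descriptions. Both PET comparisons share the surfactant control, so a low value in that single library raises both ratios.

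**Figure D3:**
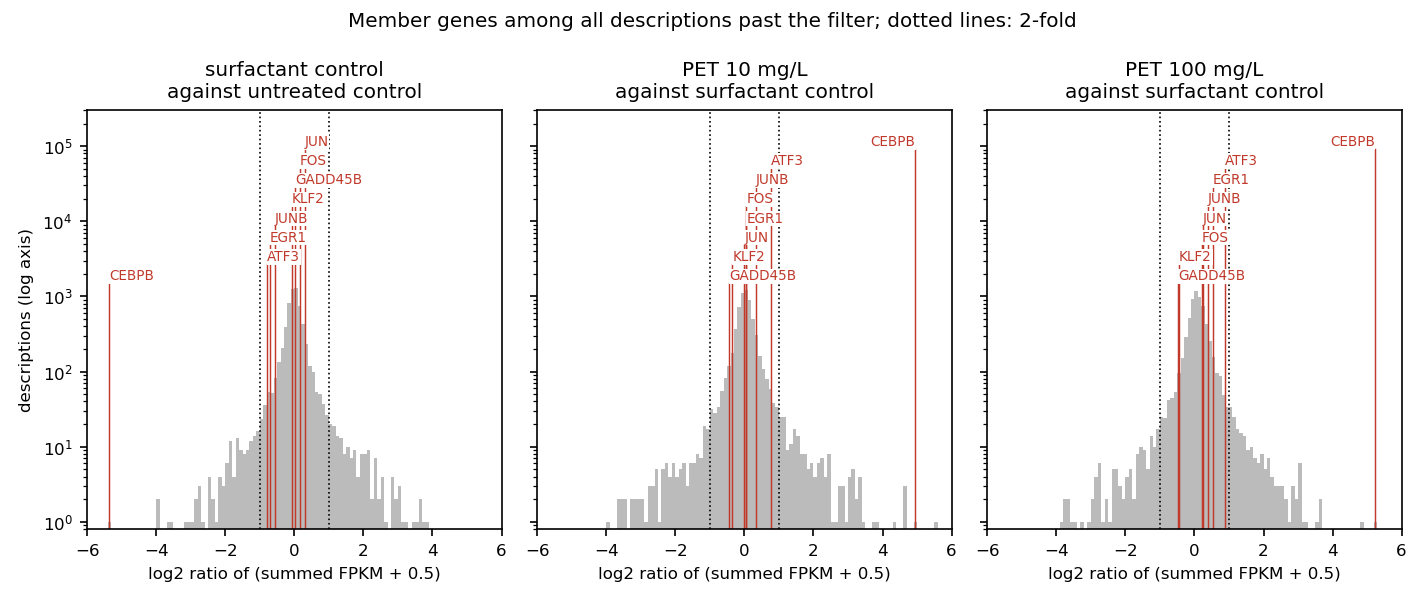
Log2 ratios of summed FPKM plus 0.5 for all 6457 descriptions (grey, number on a log axis) in 3 comparisons, with the 8 regulators marked in red. CEBPB is the only regulator outside the dotted lines at 2-fold in each panel, but its place there is set by the 0.5 FPKM added to a value listed at 0. The height of a red line carries no value.

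Against the untreated control no regulator was called in either PET library, beside 4.69% of descriptions in the low-fibre and 4.55% in the high-fibre library. EGR1 had 25.8 FPKM in the low-fibre library against 40.7 in the untreated control, which is -0.65 on the log2 scale, and the high-fibre library had 36.0, which is -0.18. KLF2 had ratios of -0.42 in the low-fibre and -0.51 in the high-fibre library, and GADD45B of -0.42 and -0.46. ATF3 had -0.02 and 0.10, JUNB -0.23 and -0.18, FOS 0.22 and 0.38, and JUN 0.30 and 0.54. The median of the 8 was -0.32 in the low-fibre and -0.16 in the high-fibre library, beside 0.03 and 0.08 over all descriptions. JUNB and EGR1 in both PET libraries were thus above the surfactant control and below the untreated control, and so was CEBPB. None of the 12 contigs past the minimum was called against the untreated control either, beside 15% of contigs in the low-fibre and 15.3% in the high-fibre library.

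Between the concentrations no regulator was called either, beside 4.79% of descriptions and, for contigs, 15.4%. EGR1 had 36.0 FPKM in the high-fibre library against 25.8 in the low-fibre library, a log2 ratio of 0.47, the largest of the 8 in size. CEBPB differed by 0.28, JUN by 0.25, FOS by 0.16 and ATF3 by 0.12. JUNB, GADD45B and KLF2 lay within 0.10 of 0.

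Both PET libraries were below both libraries without fibres for KLF2 and GADD45B, 2 of 8, beside 11.1% of descriptions. For these genes the gap was at least 1.25-fold, which 1.35% of descriptions reached. As the genes were chosen partly for such shifts, and these counts after the data were seen, the shares test nothing. After median-of-ratios scaling the same pair remained, beside 25.6% of descriptions with no minimum gap and 2.34% with it. The scaling factors lower log2 ratios of the high-fibre library by 0.14 against the surfactant control and 0.17 against the untreated control, and by less for low values because 0.5 FPKM is added. KLF2 then had -0.58 and -0.68 in these comparisons, and GADD45B -0.62 and -0.63. FOS, as a sum, was the only one of the 8 with both PET libraries above both others, beside 26.6% of descriptions (13.5% after scaling), and its main contig did not show this order.

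Among 3972 other descriptions with a mean of at least 5 FPKM, likeness was measured as the root mean square distance of centred log2 values over the 4 libraries. The nearest to GADD45B was KLF2, at a distance of 0.04. GADD45B was the third nearest to KLF2, after the collagen chain col1a2 (distance 0.03) and CREG1 (distance 0.04). The col1a2 sum was at 159.8 FPKM in the untreated control, 147 in the surfactant control, 119.6 in the low-fibre and 107 in the high-fibre library. CREG1 and KLF6 were the next nearest to GADD45B, at 0.06 each. Nearest to JUNB were ATP6V0E2, a subunit of the vacuolar proton pump, BRAF, a kinase of the ERK cascade, and a zinc finger protein annotated from a Xenopus oocyte, each at 0.04. With 4 libraries such likeness is a description only.

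The contigs of a gene did not always move together. KLF2 had 2 assembled genes. The main one, TR103033|c0_g1_i1, was at 86.8 FPKM in the untreated control, 83.9 in the surfactant control, 63.2 in the low-fibre and 59.2 in the high-fibre library. In the other, TR111059|c0_g1_i2 was nearly level at 10.7, 10.6, 10.6 and 9.86 FPKM, and TR111059|c0_g1_i1 was at 6.90, 5.04, 4.36 and 3.95. All 3 were lowest in the high-fibre library.

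GADD45B also had 2 assembled genes, with the same direction in both. TR97980|c0_g1_i1 was at 50.3 FPKM in the untreated control, 53.4 in the surfactant control, 38.8 in the low-fibre and 34.9 in the high-fibre library, and TR96179|c0_g1_i1 at 8.44, 9.11, 6.17 and 7.44. The minor isoform TR97980|c0_g1_i2 had another order, at 6.64, 3.64, 3.84 and 4.98 FPKM. It made up 6.38% of its assembled gene in the surfactant control and 11.7% in the untreated control.

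EGR1 was carried almost wholly by TR103720|c0_g1_i1, at 39.7, 23.2, 24.6 and 34.7 FPKM in the same order of libraries. Its other contigs, TR31318|c0_g1_i1 and TR91161|c2_g1_i3, stayed under 1 FPKM in every library. A further contig named egr1-b, which the rule does not take, was at 3.87 FPKM in the untreated control, was listed at 0 in the surfactant control, and was at 0.97 in the low-fibre and 0.99 in the high-fibre library. JUNB and CEBPB had 1 contig each.

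ATF3 had a main isoform, TR83396|c0_g1_i2, at 9.36, 5.24, 8.66 and 9.33 FPKM. Its second isoform, TR83396|c0_g1_i1, was listed at 0 in both libraries without fibres and was at 0.59 FPKM in the low-fibre and 0.77 in the high-fibre library. These values are below the 1 FPKM minimum. The JUN isoforms did not follow each other: TR94714|c0_g1_i1 was at 0.33, 1.01, 0.27 and 1.12 FPKM and TR94714|c0_g1_i2 at 0.40, 0, 0.74 and 0.17, also at the low end of the table.

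The 4 contigs of FOS came from 3 assembled genes. TR87286|c0_g1_i2 and TR87286|c0_g1_i3 together were at 3.19, 3.58, 3.61 and 3.55 FPKM. TR89307|c0_g3_i1 was at 0.80, 0.66, 0.60 and 1.79, and TR6491|c0_g1_i1 at 0, 0.28, 0.52 and 0. The higher FOS sum of the high-fibre library thus came from TR89307|c0_g3_i1. Whether these contigs are paralogues or pieces of 1 gene was not tested.

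**Figure D4:**
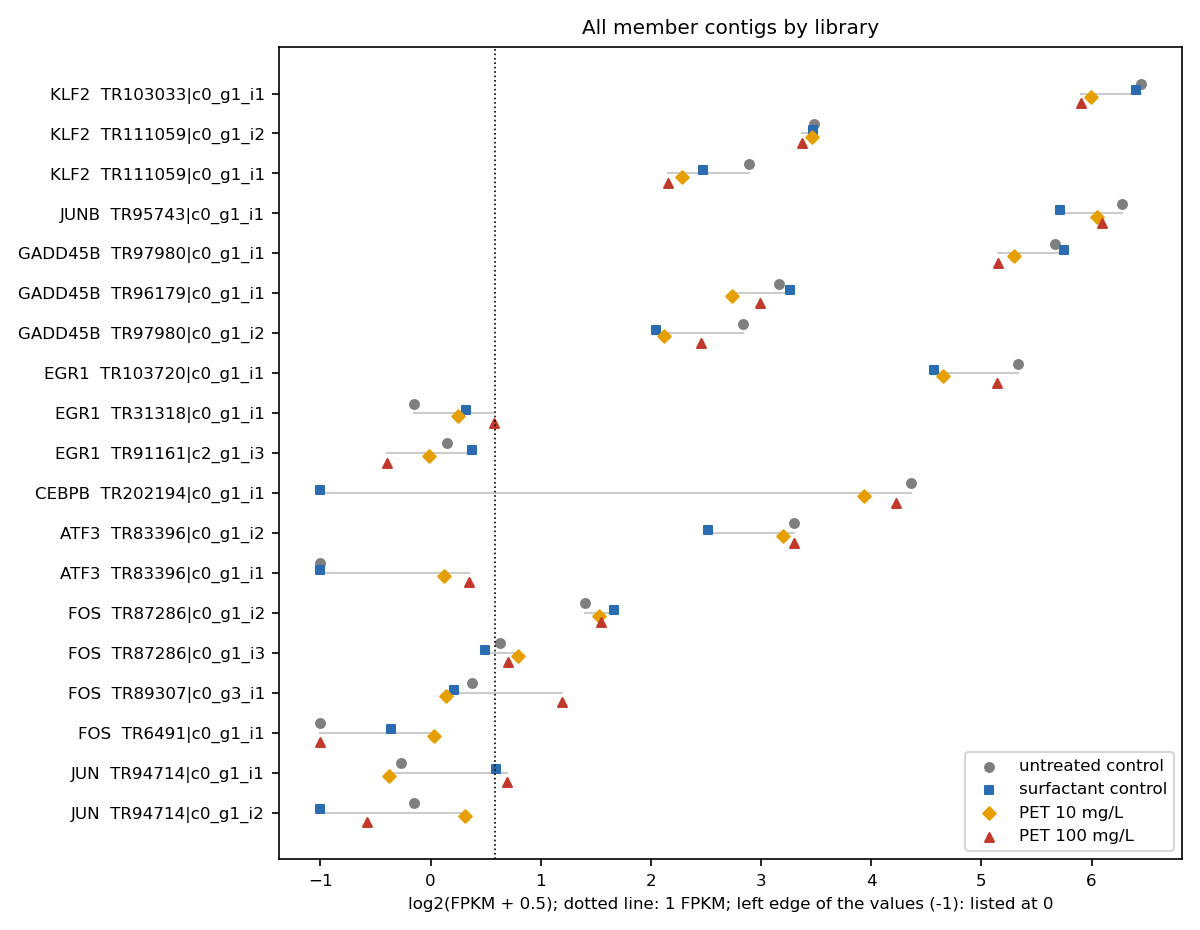
All 19 contigs of the regulators, 1 row each, as log2(FPKM + 0.5) in the 4 libraries (symbols), with the dotted line at 1 FPKM. The main contigs of KLF2 and GADD45B have both PET libraries on the left, that of CEBPB has the surfactant control at the value for 0, and the contigs left of the dotted line are from EGR1, ATF3, FOS and JUN.

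Relatives of the regulators were taken from lists of symbols. Of the other AP-1, ATF and CREB factors, 10 descriptions passed the minimum and none was called in any of the 6 comparisons. JDP2, a repressor that pairs with JUN, was at 34.6 FPKM in the untreated control, 24.8 in the surfactant control, 25.9 in the low-fibre and 28.6 in the high-fibre library. ATF7 and the row named ATF6, which is described as the beta form, differed little, at 19.6 to 21.96 and 17.2 to 20.6 FPKM. The surfactant control was lowest for 6 of the 10, beside 30.1% of all descriptions. In the lists of relatives and upstream genes below, it was lowest for 5 of 10 EGR, KLF, NR4A, MYC and ID factors. For the relatives of CEBPB, GADD45B and IER2 the count was 1 of 5, and for the upstream kinases and factors 6 of 14.

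Of the other EGR, KLF, NR4A, MYC and ID factors, 10 passed, and KLF15 alone was called, in 3 comparisons: higher in both PET libraries than in the surfactant control, and higher in the low-fibre library than in the untreated control. In these comparisons between 4.69% and 4.99% of all descriptions were called either way. KLF15, which is induced by glucocorticoids and fasting in mammals, was at 2.31 FPKM in the untreated control, 1.28 in the surfactant control, 7.86 in the low-fibre and 4.17 in the high-fibre library. ID1, an inhibitor of helix-loop-helix factors, was at 118, 113, 129.6 and 128 FPKM. EGR4 was at 4.49, 2.49, 2.98 and 4.32 FPKM, the order of libraries seen for EGR1, and EGR2 was nearly level at 6.93 to 7.24. EGR4 and EGR2 were singled out after their values were seen.

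The Krueppel-like factors were then taken as a family, after their values were seen. Of 9 descriptions named KLF and a number, 7 passed the minimum, KLF2 included. Both PET libraries were below both others for 5 of these 7 (KLF2, KLF6, KLF5, KLF13 and KLF10), beside 11.1% of all descriptions, and above both others for KLF15. After median-of-ratios scaling the count was again 5 of 7, beside 25.6% of all descriptions. KLF2, whose own order led to the family, is among them. In the values as deposited, KLF2 alone of these reached the 1.25-fold gap, beside 1.35% of all descriptions. The gap was not recounted for the family after scaling. KLF6, a wound and stress factor, was at 34.1 FPKM in the untreated control, 37.4 in the surfactant control, 28.2 in the low-fibre and 27.4 in the high-fibre library. KLF10, induced by TGF-beta, was at 5.71, 4.76, 4.09 and 3.41 FPKM. KLF5 and KLF13 differed less, at 18.9, 19.1, 18.1 and 16.6 FPKM and at 16.2, 15.3, 13.7 and 13.8 FPKM. KLF12 had the surfactant control lowest, at 8.10 FPKM.

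**Figure D5:**
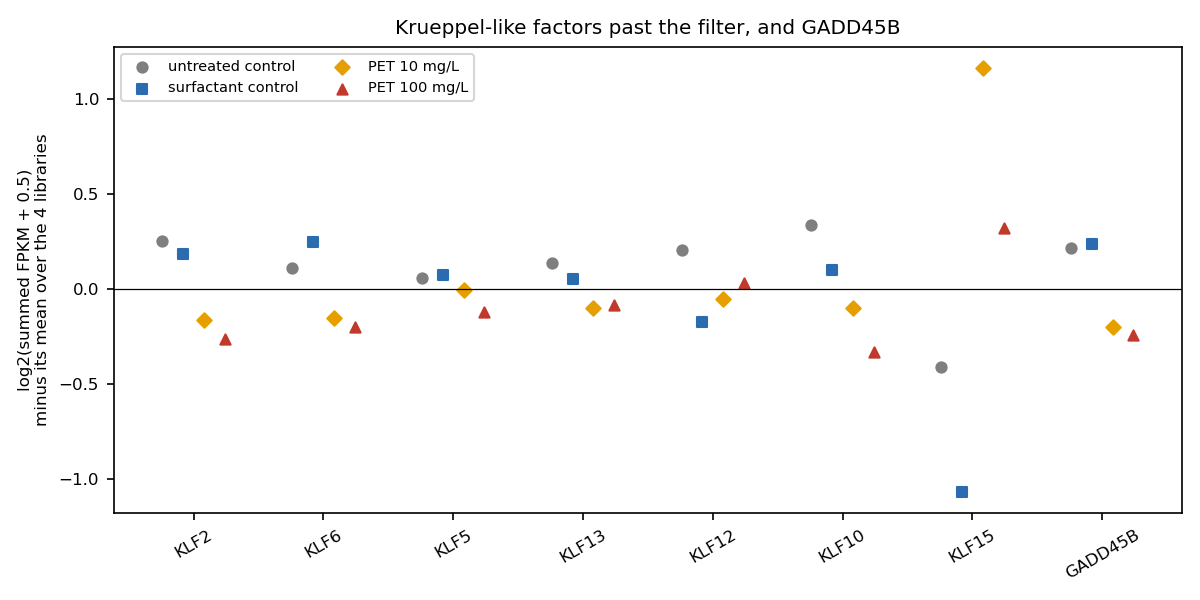
Log2(summed FPKM + 0.5) of the 7 Krueppel-like factors past the minimum and of GADD45B, minus the mean of the 4 libraries, 1 symbol a library. Both PET symbols lie below both others for KLF2, KLF6, KLF5, KLF13, KLF10 and GADD45B, and above them for KLF15.

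Of the remaining relatives of CEBPB, GADD45B and IER2, 5 descriptions passed and none was called. GADD45G was at 37.3 FPKM in the untreated control, 33.1 in the surfactant control, 31.1 in the low-fibre and 36.2 in the high-fibre library, without the pattern of GADD45B. IER5L was at 17.5, 24.03, 23.1 and 24.3 FPKM, and BTG3, an inhibitor of proliferation, at 7.37, 8.06, 8.49 and 7.65. The CEBP genes of this list, CEBPA and CEBPG, matched no named contig. Outside the list, a contig named CEBPE was at 0.52, 0.50, 0.51 and 0.53 FPKM, below the 1 FPKM minimum. The highest contig named CEBPZ was at 6.16, 7.39, 5.21 and 6.61 FPKM.

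Of the kinases and factors upstream, 14 descriptions passed. STAT3, which carries cytokine signals to CEBPB and JUNB, was at 32.4, 29.98, 30.3 and 33.2 FPKM. MAP2K4, a JNK pathway kinase, was at 15.1, 18.04, 19.4 and 17.6 FPKM, and ELK4, a partner of serum response factor, at 9.05, 12.5, 12.1 and 10.9. The median log2 ratio of the list was 0.04 in the surfactant control against the untreated control, and against the surfactant control it was 0.07 in the low-fibre and 0.03 in the high-fibre library, beside 0.00058, 0.03 and 0.08 over all descriptions.

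Of the feedback inhibitors that shut such signals off, 16 passed. NFKBIA, the inhibitor of NF-kappa-B, was at 68.4 FPKM in the untreated control, 60.0 in the surfactant control, 56.7 in the low-fibre and 52.7 in the high-fibre library. TRIB1, which promotes loss of CEBP proteins in mammals, was nearly level at 18.4 to 19.96 FPKM. DUSP6, an ERK phosphatase, was at 18.04, 14.9, 16.2 and 17.3 FPKM, lowest in the surfactant control. DUSP1, itself an immediate-early gene, was at 13.4, 8.18, 10.2 and 10.4 FPKM, and DUSP4 at 6.81, 1.5, 2.95 and 4.42. DUSP1 and DUSP4 were singled out after their values were seen. The surfactant control was lowest for 6 of the 16, beside 30.1% of all descriptions. DUSP4 was the 1 gene of the list called in the surfactant control against the untreated control, as lower, beside 4.55% of descriptions called either way. In the low-fibre library against the surfactant control 1 of the 16, not DUSP4, was called, as higher, beside 4.99% of descriptions. In the high-fibre library 1 was higher (DUSP4) and 1 lower, beside 4.91%. Against the untreated control, 1 was higher and 1 lower (DUSP4, log2 ratio -1.08) in the low-fibre library, beside 4.69%. In the high-fibre library 1 was lower, beside 4.55%. Between the concentrations 2 were lower in the high-fibre library, beside 4.79%.

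The acute phase list, which holds targets of CEBPB known from mammals, had its lowest sum in the untreated control, but its members differed in order. Its 5 descriptions past the minimum summed to 357 FPKM in the untreated control, 423 in the surfactant control, 511 in the low-fibre and 608 in the high-fibre library. Complement C3 was at 87.1, 111, 148 and 198 FPKM, FGG at 124.5, 157, 149.9 and 185, and LECT2 at 65.4, 51.6, 143 and 133. The others, SERPINA1 at 72.3, 95.1, 65.3 and 82.7 FPKM and CRP at 7.53, 7.94, 4.48 and 9.59, were lowest in the low-fibre library. LECT2 alone was called in each PET library against the surfactant control, as higher, beside 4.99% (low-fibre) and 4.91% (high-fibre) of descriptions called either way. Against the untreated control LECT2 was called higher in both PET libraries and C3 in the high-fibre library, beside 4.69% (low-fibre) and 4.55% (high-fibre). CRP was called higher in the high-fibre than in the low-fibre library, beside 4.79%. The 8 hepatocyte markers summed to 1461, 1892, 1870 and 1839 FPKM, lowest in the untreated control. Most of each sum came from FABP10, and not all markers had this order. The 4 myeloid markers, from cells in which CEBPB is expressed, summed to 30.5, 29.0, 36.9 and 27.9 FPKM. MPEG1, a macrophage marker, was listed at 0 in the untreated control and in the high-fibre library and was at 0.89 FPKM in the surfactant control and 4.58 in the low-fibre library. In the surfactant control against the untreated control 2 of 8 hepatocyte markers and 1 of 4 myeloid markers (MPEG1) were called, as higher, beside 4.55% of descriptions called either way. The hepatocyte markers called were FABP1, at 3.14, 8.01, 3.42 and 1.92 FPKM, and TDO2, at 0.81, 2.8, 4.2 and 5.03. Others had another order, TF at 2.82, 1.29, 2.12 and 3.66 FPKM and CPS1 at 3.12, 2.99, 2.36 and 3.37. These 4 were singled out after their values were seen. FABP10, a liver fatty acid-binding protein, was at 1222, 1609, 1557 and 1481 FPKM, and CORO1A, an actin-binding protein of leukocytes, at 25.7, 23.1, 26.4 and 22.2. The liver enzyme HPD was at 94.3, 96.8, 131 and 139.7 FPKM. SPI1, the factor PU.1, was at 3.07, 2.87, 3.80 and 3.86 FPKM, and CSF3R, a cytokine receptor, at 1.75, 2.12, 2.09 and 1.84. The relation of CEBPB to the acute phase genes, or to liver and myeloid cells, was not tested.

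The skeletal muscle markers, as a sum, were lower in both PET libraries, as KLF2 was. Their 7 descriptions summed to 13008 FPKM in the untreated control, 12319 in the surfactant control, 11824 in the low-fibre and 11051 in the high-fibre library. Most of each sum came from creatine kinase CKM. Of the 7, 4 had both PET libraries below both others, beside 11.1% of all descriptions. That share was 25.6% after median-of-ratios scaling, under which the muscle markers were not recounted. ACTA1, singled out after its values were seen, had another order, at 587.5, 393, 398 and 547 FPKM. Neuron markers, from cells in which EGR1 and FOS respond to activity, summed to 92.4, 80.2, 97.6 and 99.3 FPKM over 5 descriptions. The sum was lowest in the surfactant control, as EGR1 and JUNB were, whereas FOS was lowest in the untreated control. By description, the surfactant control was lowest for 3 of the 5, beside 30.1% of all descriptions. It was lowest for 1 of 7 muscle, 1 of 8 hepatocyte and 1 of 4 myeloid markers. The count was 1 of 5 for the acute phase list and 1 of 8 for genes that growth factors and wounds induce. None of the muscle or neuron markers was called in any comparison. Creatine kinase CKM was at 8402, 7681, 7526 and 6977 FPKM, and the synaptic protein SNAP25 at 36.1, 34.2, 40.1 and 32.8. The fast troponins TNNT3 and TNNI2 were at 2422, 2397, 2192 and 2016 FPKM and at 1026, 1209, 1158 and 997 FPKM. The neuronal RNA-binding proteins ELAVL3 and ELAVL4 were at 21.7, 19.7, 22.7 and 26.8 FPKM and at 21.1, 15.03, 20.7 and 25.3. The part of these tissues in the levels of the regulators was not tested.

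Stress pathways that share ATF3 and CEBPB were represented by few genes. Of the integrated stress and unfolded protein response list 4 descriptions passed, and XBP1, a factor of that response, was at 221, 228, 229 and 232 FPKM. CHAC1 was at 458, 444, 474 and 482 FPKM, and DDIT4, which restrains mTOR, at 3.79, 3.87, 4.26 and 5.30. SESN2, singled out after its values were seen, was listed at 0 in the untreated control and in the low-fibre library and was at 1.6 FPKM in the surfactant control and 3.14 in the high-fibre library. SESN2 was called higher in the surfactant control and the high-fibre library than in the untreated control. It was also called lower in the low-fibre library than in the surfactant control, and higher in the high-fibre than in the low-fibre library. Beside these calls, 4.55% to 4.99% of all descriptions were called either way. Of 7 glucocorticoid response descriptions, PCK1 alone was called, in 4 comparisons. PCK1, an enzyme of glucose synthesis, was at 3.48 FPKM in the untreated control, 1.9 in the surfactant control, 6.31 in the low-fibre and 0.6 in the high-fibre library. It was called higher in the low-fibre library than in the surfactant control, and lower in the high-fibre library than in each of the other libraries. Between 4.55% and 4.99% of all descriptions were called either way in these comparisons. PCK1 was singled out after its values were seen. Both PET libraries were above both others for 4 of the 7 and below both for 2. In the integrated stress list they were above for 3 of 4 and below for 0. Of all descriptions, 26.6% had both above and 11.1% both below. These shares were 13.5% and 25.6% after median-of-ratios scaling, under which the lists were not recounted. The surfactant control was lowest for 2 of the 7 and for 1 of the 4, beside 30.1%. TSC22D3, induced by glucocorticoids in mammals, was at 109.96, 117.5, 100 and 105 FPKM, tyrosine aminotransferase (TAT) at 94.2, 82.9, 131 and 126, and the kinase SGK1 at 79.1, 79.5, 83.7 and 88.2.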

How the data were processed

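RNA of whole larvae was sequenced as 4 libraries. The authors deposited 1 table of FPKM per contig, per the file headers. RSEM, Bowtie and bcl2fastq 2.20.0.422 are listed per the submitters' processing notes. The assembler and the annotation steps are not stated in these sources. FPKM scales with length and with the mapped total, keeps no counts, and RSEM splits reads among isoforms, so the level of a single contig can shift between sister isoforms. No sequence was used here. Values were used as deposited and summed over contigs of the same description, without its source accession. Those averaging 1 FPKM or more entered the comparisons (6457 descriptions and 45298 contigs), log2 ratios used a pseudocount of 0.5 FPKM, which understates ratios of low genes, and 2-fold was called. The computation, in Python 3.11.15 with pandas 2.3.3 and numpy 2.4.6, was tested on simulated data. The genes and lists were chosen with earlier results of these data known. All genes of the rule were named. Of each list the 3 with the highest mean were named, and others after their values were seen. A gene of the lists is not reported here.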

Additional observations from a re-analysis of the deposited data

How the results depend on the processing

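The count of regulators past 2-fold was 1, 1, 1, 0, 0 and 0 in the 6 comparisons under each alternative run: the main contig, sums per assembled gene or per accession, pseudocounts of 0.1 and 1 FPKM, no minimum or 5 FPKM, median-of-ratios scaling, and the contig egr1-b added. Each count of 1 was CEBPB, set by its 0 in the surfactant control. None of these runs could bring that 0 under 2-fold, so the unchanged counts are no check of it. Sums per accession, egr1-b and the counts by order of libraries were chosen after the data were seen. Genes with the surfactant control lowest numbered 4 throughout. Those with both PET libraries below both others numbered 2, except 4 of 10 assembled genes, as both assembled genes of KLF2 and of GADD45B count there, and 3 of 10 sums per accession. Those with both PET libraries above both others (FOS) numbered 1, and 0 with the main contig, per assembled gene or at 5 FPKM, where FOS is left out. The called ratios, all of CEBPB against its listed 0, kept their sign, which that 0 fixed in advance. JUN at 100 against 10 mg/L PET passed 2-fold by its main contig alone. At 100 mg/L against the untreated control ATF3 had a ratio of 0.10, and -0.05 after scaling. After that scaling JUN was under the 1 FPKM minimum. No paired analysis was possible because each group held 1 library, and for the same reason none could be left out. Depth is unknown, so values near 1 FPKM are the least certain.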

Other observations

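Among genes that growth factors and wounds induce, the CCN proteins CYR61 and CTGF were the most abundant. CYR61 was at 111 FPKM in the untreated control, 118 in the surfactant control, 98.4 in the low-fibre and 102 in the high-fibre library, and CTGF at 80.1, 83.2, 74.8 and 80.1. TIMP2, an inhibitor of matrix metalloproteinases, was at 26.1, 27.1, 27.0 and 30.6 FPKM. PTGS2, the inducible prostaglandin synthase, was at 1.51, 0.14, 2.36 and 1.56 FPKM and was the 1 of 8 descriptions of this list called in the surfactant control against the untreated control, as lower, and was called in both PET libraries against the surfactant control, as higher. Beside these calls, between 4.55% and 4.99% of all descriptions were called either way in the same comparisons. PTGS2 was singled out after its values were seen. POMC, also chosen after its values were seen, the precursor of the pituitary stress hormone ACTH, was at 1.67 FPKM in the untreated control and was listed at 0 in the other libraries. Its mean of 0.42 FPKM was below the 1 FPKM minimum, so it entered no comparison.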
